A study of Mus musculus with 11 samples.

Results

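The genes of the NF-kB subunits and their inhibitors were examined on 11 Affymetrix arrays of mouse CD4 T cells. The set was given by name and held 10 genes: the subunit genes Nfkb1, Nfkb2, Rel, Rela and Relb, the IkB genes Nfkbia, Nfkbib, Nfkbid and Nfkbie, and Tnfaip3. Of these, 9 genes with 17 probe sets were measured, among 18193 genes tested. Nfkb1 had no entry in the gene table and was not analysed here. The value of each gene is its brightest probe set, the one with the highest mean over the 11 arrays. Per the labels, the mice were 6 to 8 weeks old, and spleen and lymph node cells were positively selected for CD4 and then sorted on GFP. The TN group (3 arrays) consists of naive, Foxp3-negative CD4+ T cells, Foxp3 being the defining transcription factor of regulatory T cells. The Treg group (5 arrays) is labelled as Foxp3-positive CD4+ T cells. The GFPKO group (3 arrays) consists of CD4+ T cells sorted as GFP+ from Foxp3GFPKO/WT mice, which carry 1 wild-type Foxp3 allele and 1 allele that expresses GFP without functional Foxp3. The GFP+ sort thus took cells that express the latter allele. The labels give no treatment. Whether each array stands for its own mouse or for pooled mice is not stated. The p-values below therefore refer to the spread among these arrays, part or all of which may be technical.

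NF-kB is a family of dimeric transcription factors built from p50, p52, c-Rel, RelA and RelB. In resting cells IkB proteins hold most dimers inactive, and signals from the T cell receptor, CD28 and receptors of the TNF family lead to IkB degradation and entry of the dimers into the nucleus. Several family genes, Nfkbia among them, are themselves known NF-kB targets, which gives the pathway negative feedback. In regulatory T cells c-Rel is known for its part in the induction of Foxp3 in the thymus.

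The stretches before the starts of the member genes are shown first because the binding motif of NF-kB itself, the kappaB consensus, stands in several of them. RefSeq promoter windows of the build GRCm38.p6 matched 8 of the 9 measured genes, and Relb was not among them. Both strands of the 250 bases before each annotated start were searched. A match to the kappaB consensus was found for 6 of the 8 genes, against 4.46% of the 27025 genes with such a window, and the match is a description of the letters, not a measured binding site. Nfkbid and Nfkb2 have 3 windows each and Tnfaip3 has 2, so that some genes had more letters to match. One window is shown for each gene, the one with the most matches, 5′ to 3′ on the strand of the gene, with the matched letters in capitals. Rela and Nfkbib are shown because their windows held no match.
Nfkb2 (chr19:46304487-46304736, plus strand): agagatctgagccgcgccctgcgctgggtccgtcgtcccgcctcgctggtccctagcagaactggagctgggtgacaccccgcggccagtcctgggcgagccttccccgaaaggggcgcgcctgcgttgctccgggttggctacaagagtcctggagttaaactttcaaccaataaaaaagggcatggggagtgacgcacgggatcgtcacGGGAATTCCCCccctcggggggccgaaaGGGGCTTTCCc
Rel (chr11:23770970-23771219, minus strand): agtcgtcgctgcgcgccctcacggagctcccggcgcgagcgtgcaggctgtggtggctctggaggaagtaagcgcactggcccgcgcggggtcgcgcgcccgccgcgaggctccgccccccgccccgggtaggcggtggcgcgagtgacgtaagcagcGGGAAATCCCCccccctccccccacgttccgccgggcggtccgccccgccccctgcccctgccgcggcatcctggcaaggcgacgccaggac
Nfkbia (chr12:55492648-55492897, minus strand): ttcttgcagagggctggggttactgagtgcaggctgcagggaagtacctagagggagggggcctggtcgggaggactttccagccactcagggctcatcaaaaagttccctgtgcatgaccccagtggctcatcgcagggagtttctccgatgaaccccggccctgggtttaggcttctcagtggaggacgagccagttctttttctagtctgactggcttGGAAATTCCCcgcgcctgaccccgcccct
Nfkbie (chr17:45555450-45555699, plus strand): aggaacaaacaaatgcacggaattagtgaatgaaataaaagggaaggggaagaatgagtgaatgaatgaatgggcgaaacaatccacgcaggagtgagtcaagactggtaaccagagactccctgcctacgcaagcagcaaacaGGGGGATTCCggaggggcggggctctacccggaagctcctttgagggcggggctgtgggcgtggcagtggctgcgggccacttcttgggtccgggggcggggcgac
Nfkbid (chr7:30422156-30422405, plus strand): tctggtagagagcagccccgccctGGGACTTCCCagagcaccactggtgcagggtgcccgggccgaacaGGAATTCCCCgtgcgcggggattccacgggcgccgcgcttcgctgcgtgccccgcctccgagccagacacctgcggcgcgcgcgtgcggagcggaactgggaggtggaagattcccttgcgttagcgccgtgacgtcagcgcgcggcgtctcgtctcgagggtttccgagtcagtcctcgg
Tnfaip3 (chr10:19015411-19015660, minus strand): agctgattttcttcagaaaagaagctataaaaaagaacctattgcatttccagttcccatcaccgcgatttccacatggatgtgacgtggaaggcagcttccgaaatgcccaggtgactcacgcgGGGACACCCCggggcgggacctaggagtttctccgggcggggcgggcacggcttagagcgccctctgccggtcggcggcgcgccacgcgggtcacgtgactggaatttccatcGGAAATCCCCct
Rela (chr19:5637291-5637540, plus strand): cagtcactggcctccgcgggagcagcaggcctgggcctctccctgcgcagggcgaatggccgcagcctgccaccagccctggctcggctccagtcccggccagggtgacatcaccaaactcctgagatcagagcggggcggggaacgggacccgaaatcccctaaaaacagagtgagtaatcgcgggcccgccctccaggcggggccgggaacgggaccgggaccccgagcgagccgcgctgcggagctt
Nfkbib (chr7:28766645-28766894, minus strand): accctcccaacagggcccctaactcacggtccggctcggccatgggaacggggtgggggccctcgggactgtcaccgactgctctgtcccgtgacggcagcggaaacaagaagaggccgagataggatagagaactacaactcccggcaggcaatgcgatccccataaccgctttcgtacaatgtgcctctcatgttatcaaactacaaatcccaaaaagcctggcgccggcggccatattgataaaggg

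These windows can be read beside the values below. The 6 genes with a match were among the 7 members called higher in Treg than in TN, and Rela and Nfkbib were the 2 members not called. The remaining one, Relb, had no window to search. Over all 14452 tested genes with a window the match was found in 5.34%. It was found in 8.74% of the 927 such genes called higher in Treg than in TN, in 6.59% of the 501 called lower and in 5.05% of the 13024 not called. Whether the match has a part in any of these differences was not tested.

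The arrays carried markers of T cells, Cd4 among them. Cd4 itself had group means of 8.03 in TN, 7.69 in Treg and 8.11 in GFPKO. Cd247 was called lower in both Treg and GFPKO than in TN. The 6 markers measured (Cd3e, Cd3d, Cd3g, Cd247, Cd4 and Cd5) had a mean log2 value over the list between 11.07 and 11.44 on all arrays, none near the background of 3.99, the highest Foxp3 value in TN. Foxp3 itself read 3.12 to 3.99 in TN, 3.29 to 3.64 in Treg and 6.75 to 7.19 in GFPKO. By this probe set the Treg arrays read no higher than TN, although they are labelled as Foxp3-positive. The name Treg is therefore used for the arrays so labelled, and every direction below rests on that label. Where the probe set lies relative to the altered part of the allele is not known. The other 5 Treg markers tested (Il2ra, Ctla4, Ikzf2, Tnfrsf18 and Nrp1) were all called higher in Treg than in TN. Xist read 11.07 to 11.85 in GFPKO and at most 3.96 elsewhere, so sex and genotype cannot be told apart in comparisons with GFPKO. RNA integrity was read from the actin controls, as the signal near the 3′ end minus that near the 5′ end. This difference was 0.77, 0.83 and 0.45 in GFPKO replicates 1, 2 and 3, and 0.38 to 0.61 in the other arrays. Of 10 myeloid and dendritic markers 5 (Fcer1g, Tyrobp, Itgax, Siglech and Ly86) were called lower in both Treg and GFPKO than in TN. The mean log2 value over the 10 genes was 4.92 to 5.46 in TN, 4.26 to 4.57 in Treg and 4.07 to 4.34 in GFPKO, with Itgam and Cd14 at or below background in each group. The 3 NK markers had a mean of 6.40 to 6.76 in TN, 3.87 to 4.09 in Treg and 3.88 to 4.30 in GFPKO, with Ncr1 at or below background throughout. Klrd1 had group means of 8.83 in TN, 3.15 in Treg and 3.96 in GFPKO. Those of Prf1 were 7.92, 5.71 and 5.32 in the same order. The 6 B cell markers had a mean of 3.83 to 3.98 in TN, 4.16 to 4.29 in Treg and 3.61 to 4.01 in GFPKO. Cd79a, Ms4a1 and Ebf1 were at or below background in each group. The 2 CD8 markers had a mean of 5.95 to 6.37 in TN, 5.91 to 6.36 in Treg and 5.70 to 6.26 in GFPKO. Of the 2, Cd8b1 had group means of 7.60 in TN, 7.22 in Treg and 6.98 in GFPKO. It was called lower in GFPKO than in TN. Cd8a had group means of 4.83, 5.17 and 4.90 in the same order.

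Naive cells and Treg were compared first. Of the 9 members 7 were called higher in Treg than in TN in limma at an adjusted p under 0.05 and none lower, while 6.54% of all genes were called higher. The 7 were the subunit genes Nfkb2, Rel and Relb, the IkB genes Nfkbia, Nfkbid and Nfkbie, and Tnfaip3. Rela and Nfkbib were not called. The changes were modest, with no member at 2-fold or more. The median log2 fold change over the members was 0.65, against 0.030 over all genes. In the same 7 genes every Treg array was above every TN array, which held for 11.7% of all genes. Of the markers of other cells, 5 of 10 myeloid and dendritic genes and 2 of 3 NK genes (Klrd1 and Prf1) were called lower in Treg, opposite to the members. The myeloid gene Lyz2 was called higher in Treg, as the members were, with means of 5.58 in TN, 7.02 in Treg and 6.57 in GFPKO (log2 fold change of Treg minus TN 1.43, adjusted p = 0.0406). Among the B cell markers Cd79b was called higher and Ms4a1 and Blnk lower in Treg. The part of these markers in the members' differences was not tested. In bulk samples a higher level per cell and more cells that express a gene cannot be told apart.

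**Figure D1:**
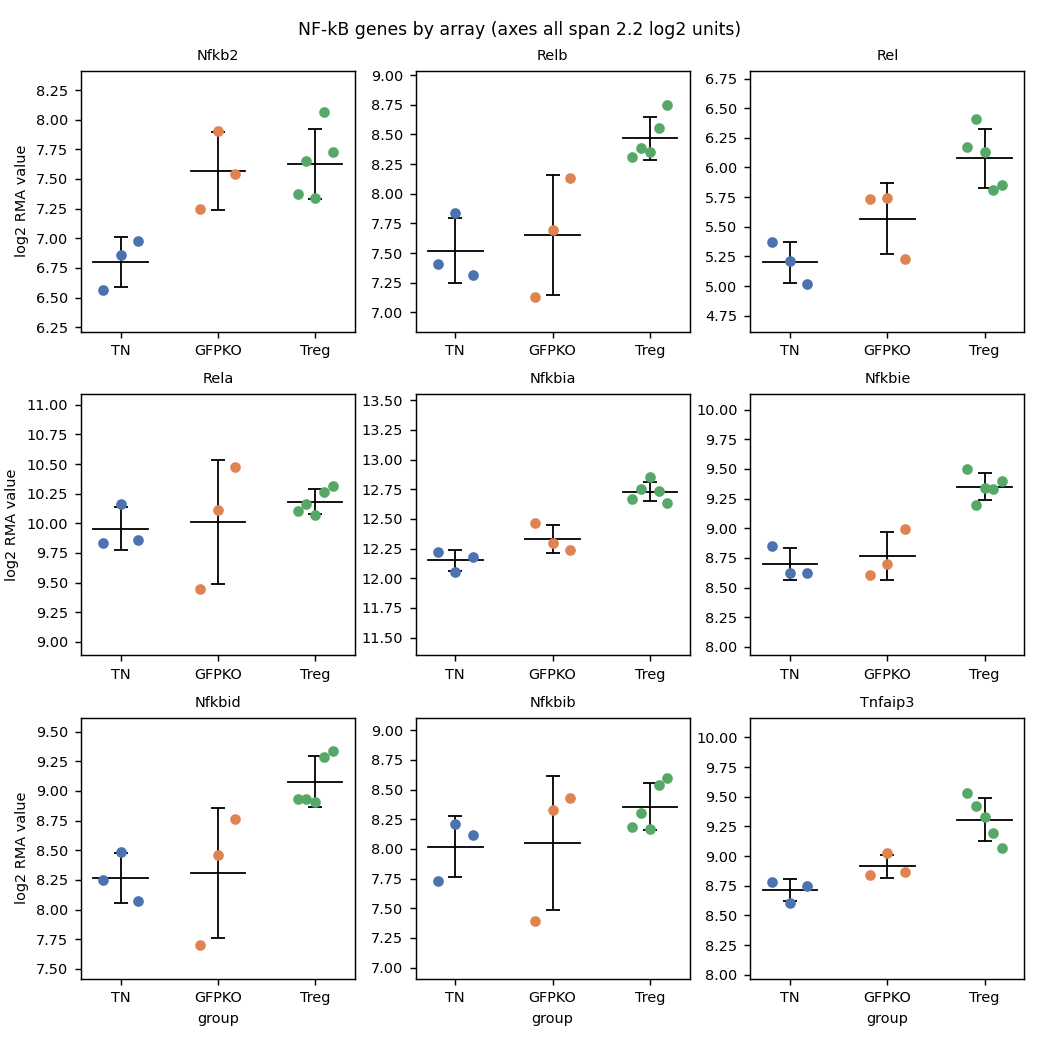
Log2 RMA value of the 9 measured members on each array, by group; points are arrays, lines are group means and bars are 1 SD. In 7 genes all 5 Treg points lie above all 3 TN points, while Rela and Nfkbib overlap, and the GFPKO points spread widely in Rela, Relb, Nfkbib and Nfkbid.

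Relb encodes the subunit that pairs with p52 in the alternative pathway. On the log2 scale it read 7.41, 7.83 and 7.32 in the TN arrays, 8.31, 8.38, 8.35, 8.55 and 8.75 in the Treg arrays and 7.13, 7.70 and 8.13 in the GFPKO arrays. Every Treg array was above every array of the other groups, and the GFPKO arrays spread over the whole TN range and beyond it on both sides. Between Treg and TN it differed 1.93-fold, higher in Treg, with a log2 fold change of 0.95 ± 0.20 (SE) and an adjusted p of 0.00422. Rel encodes c-Rel, the subunit linked most closely to lymphocyte activation. It read 5.37, 5.21 and 5.02 in TN, 6.17, 6.41, 6.13, 5.81 and 5.86 in Treg and 5.74, 5.75 and 5.23 in GFPKO. GFPKO replicate 3 fell among the TN values, and replicates 1 and 2 lay between the TN and Treg values. Rel was 1.84-fold higher in Treg than in TN (0.88 ± 0.16, adjusted p = 0.00194).

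Nfkb2 encodes p100, the precursor of p52. It read 6.57, 6.86 and 6.98 in TN, 7.37, 7.65, 7.34, 8.06 and 7.73 in Treg and 7.25, 7.91 and 7.54 in GFPKO. The TN arrays were the lowest, and the GFPKO and Treg values overlapped. Nfkb2 was 1.78-fold higher in Treg than in TN (0.83 ± 0.18, adjusted p = 0.00695), a call lost without TN replicate 1 (log2 fold change 0.71, adjusted p = 0.0571). Rela encodes the main activating subunit of the canonical pathway. It read 9.84, 10.16 and 9.86 in TN, 10.11, 10.16, 10.07, 10.26 and 10.31 in Treg and 9.45, 10.11 and 10.47 in GFPKO. Here the 3 groups overlapped, and both the lowest and the highest of the 11 values were GFPKO arrays. The log2 fold change of Treg minus TN was 0.23 with a 95% interval from -0.16 to 0.62 (adjusted p = 0.573). The estimates of Nfkbia (0.58) and Tnfaip3 (0.59) lay within this interval. Those of the other called members, Rel (0.88) among them, lay above it. The interval of Rel ran from 0.52 to 1.23 and overlapped that of Rela.

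Nfkbia encodes IkB alpha, the inhibitor that canonical signals degrade and that NF-kB then resynthesises. Its brightest probe set read 12.22, 12.05 and 12.18 in TN, 12.67, 12.75, 12.85, 12.74 and 12.64 in Treg and 12.47, 12.29 and 12.24 in GFPKO. By this probe set the 3 groups did not overlap, with GFPKO between TN and Treg. The highest TN value (12.22) and the lowest GFPKO value (12.24) were close. By the dimmest Nfkbia probe set GFPKO overlapped both other groups. Nfkbia was 1.49-fold higher in Treg than in TN (0.58 ± 0.11, adjusted p = 0.00219). Nfkbie encodes IkB epsilon, another inhibitor that retains dimers in the cytoplasm. It read 8.85, 8.62 and 8.63 in TN, 9.50, 9.19, 9.34, 9.33 and 9.40 in Treg and 8.61, 8.70 and 9.00 in GFPKO. The Treg arrays stood above all others, and TN and GFPKO overlapped. Nfkbie was 1.57-fold higher in Treg than in TN (0.65 ± 0.13, adjusted p = 0.0023).

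Nfkbid encodes IkBNS, a nuclear IkB protein that acts on gene expression with p50 and is known to promote Foxp3 induction. It read 8.25, 8.49 and 8.07 in TN, 8.93, 8.93, 8.91, 9.29 and 9.34 in Treg and 7.70, 8.46 and 8.76 in GFPKO. All 5 Treg arrays were higher than the rest, and the GFPKO arrays lay both below and above the TN range. Nfkbid was 1.75-fold higher in Treg than in TN (0.81 ± 0.20, adjusted p = 0.0169). This call was lost without TN replicate 1 (adjusted p = 0.0686) and without TN replicate 3 (adjusted p = 0.102), at log2 fold changes of 0.80 and 0.71. Nfkbib encodes IkB beta. It read 7.73, 8.21 and 8.12 in TN, 8.19, 8.30, 8.16, 8.54 and 8.60 in Treg and 7.40, 8.33 and 8.43 in GFPKO. The groups overlapped, and the log2 fold change of Treg minus TN was 0.34 with a 95% interval from -0.11 to 0.79 (adjusted p = 0.43).

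Tnfaip3 encodes A20, a ubiquitin-editing enzyme that shuts down signalling towards NF-kB. It read 8.78, 8.61 and 8.75 in TN, 9.53, 9.42, 9.33, 9.20 and 9.07 in Treg and 8.84, 9.03 and 8.87 in GFPKO. As with Nfkbia, the 3 groups did not overlap and GFPKO lay in between. Tnfaip3 was 1.51-fold higher in Treg than in TN (0.59 ± 0.13, adjusted p = 0.00502). With 1 TN array left out at a time the count of members called was 7 without TN replicate 2, 6 without TN replicate 3 and 5 without TN replicate 1.

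**Figure D2:**
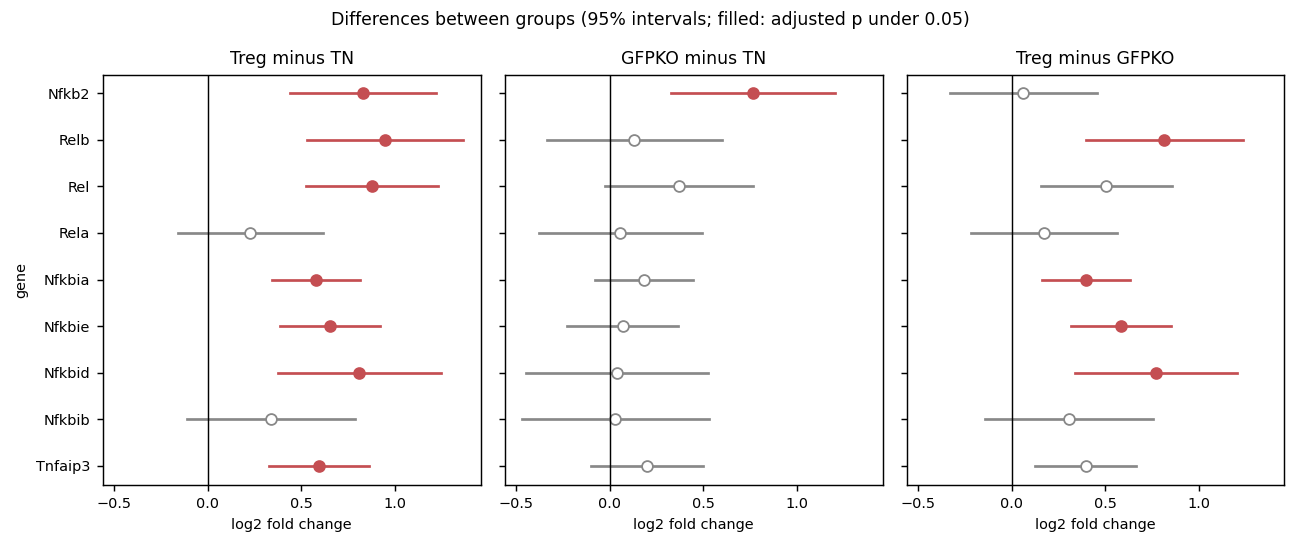
Log2 fold change of each member in the 3 comparisons, with 95% intervals from limma; filled points have an adjusted p under 0.05. The left panel (Treg minus TN) has 7 filled points, the middle panel has 1 (Nfkb2) and the right panel (Treg minus GFPKO) has 4, and all 27 estimates lie above 0.

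Next, GFPKO was compared with TN. In limma Nfkb2 alone of the 9 members passed the test as higher in GFPKO and the other 8 did not pass in either direction, with 2.64% of all genes called higher. Nfkb2 was 1.70-fold higher (log2 fold change 0.77 ± 0.20, adjusted p = 0.0397). The median over the members was 0.13, against -0.037 over all genes, and the other members ranged from 0.031 (Nfkbib) to 0.37 (Rel, adjusted p = 0.345). All GFPKO arrays were above all TN arrays in 3 members, Nfkb2, Nfkbia and Tnfaip3, which held for 7.06% of all genes. Nfkbia (0.18 ± 0.12, adjusted p = 0.54) and Tnfaip3 (0.20 ± 0.14, adjusted p = 0.565) did not pass the test. For Relb the interval of the difference ran from -0.34 to 0.60, for Nfkbid from -0.45 to 0.53 and for Nfkbie from -0.23 to 0.37. The Nfkb2 call rested on the choice of probe set and on single arrays. By its other probe set the log2 fold change was 0.38. In the limma fit over all probe sets its adjusted p was 0.54, against 0.0563 for the brightest. The call was lost without any 1 of the 3 TN arrays (adjusted p = 0.197, 0.0998 and 0.0548 without replicates 1, 2 and 3), without GFPKO replicate 2 (adjusted p = 0.185), without Treg replicate 2 (adjusted p = 0.0607) and without Treg replicate 5 (adjusted p = 0.051). Over all alternatives the adjusted p of Nfkb2 ranged from 0.000105 to 0.333.

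Treg and GFPKO were then compared directly, which also tests whether the 2 groups differ in their distance from TN. The 3 comparisons share arrays, so their values are not independent of each other. Of the 9 members 4 were called higher in Treg than in GFPKO and none lower, with 6.88% of all genes called higher. They were Relb (1.76-fold, log2 fold change 0.82 ± 0.20 SE, adjusted p = 0.016), Nfkbid (1.71-fold, 0.77 ± 0.20, adjusted p = 0.0267), Nfkbie (1.50-fold, 0.58 ± 0.13, adjusted p = 0.00779) and Nfkbia (1.32-fold, 0.40 ± 0.11, adjusted p = 0.0354). Rel (0.51 ± 0.16, adjusted p = 0.0697) and Tnfaip3 (0.40 ± 0.13, adjusted p = 0.0641) did not pass, although in them too every Treg array was above every GFPKO array. Groups without overlap in this direction were found in 6 members, the 4 called ones, Rel and Tnfaip3, and in 11.1% of all genes. Nfkb2 showed the smallest estimate, 0.064 with an interval from -0.33 to 0.46. Rela (0.17) and Nfkbib (0.31) were not called either. The median over the members was 0.40, against 0.079 over all genes, so part of the members' shift is shared with the table as a whole. With each array centred on its median only Relb and Nfkbie stayed called. Nfkbia was then at 0.23 (adjusted p = 0.237) and Nfkbid at 0.61 (adjusted p = 0.0577).

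The group means of all 9 members stood in the order TN, GFPKO, Treg, as did those of 19.3% of all genes. Within this order the mean of the 3 GFPKO arrays lay close to TN in Relb, Nfkbid and Nfkbie, and close to Treg in Nfkb2. For the 7 members called in Treg minus TN, the estimated difference between GFPKO and TN, as a percentage of that between Treg and TN, was 4.78% for Nfkbid, 10.5% for Nfkbie, 13.8% for Relb, 31.6% for Nfkbia, 33.5% for Tnfaip3, 42.2% for Rel and 92.3% for Nfkb2. For Nfkbia, Nfkb2 and Nfkbie the percentage depended on the probe set. It ranged from 39.9% to 68.8% over the other 4 Nfkbia probe sets, and 3 of the 5 placed GFPKO nearer to Treg. By the other Nfkb2 probe set it was 40.0%, and by the other Nfkbie probe set 28.2%. These shares are given without an error, and most GFPKO estimates did not differ from TN by the test. The shares also depended on single arrays. With 1 array left out, the difference between GFPKO and TN ranged from -0.11 to 0.39 for Relb and from -0.19 to 0.34 for Nfkbid. For Nfkbie it ranged from -0.046 to 0.15. With all arrays Treg minus TN was 0.95 for Relb, 0.81 for Nfkbid and 0.65 for Nfkbie.

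The GFPKO arrays differed among themselves more than those of the other groups. In 8 of the 9 members GFPKO had the largest SD of the 3 groups, as it had in 58.3% of all genes. The SD was 0.50 in GFPKO and 0.18 in Treg for Relb, 0.55 and 0.21 for Nfkbid, 0.20 and 0.11 for Nfkbie, and 0.12 and 0.083 for Nfkbia. The model used 1 spread per gene for all 3 groups. The SEs and p-values of comparisons with GFPKO may therefore be too small. Replicate 1 was the lowest GFPKO array in 7 members and the lowest of all 11 arrays in 5 (Rela, Relb, Nfkbib, Nfkbid and Nfkbie), yet the highest GFPKO array in Nfkbia. Replicate 3 was the highest GFPKO array in 5 members and the lowest in Rel and Nfkbia. Replicates 1 and 2 had the highest actin differences given above. With that difference as a covariate no member was called in Treg minus GFPKO in limma, and 6 had an unadjusted p under 0.05. The estimates were then 0.62 for Relb (adjusted p = 0.157), 0.60 for Nfkbid (adjusted p = 0.221), 0.47 for Nfkbie (adjusted p = 0.0799) and 0.40 for Nfkbia (adjusted p = 0.123). With GFPKO replicates 1 and 2 both left out, an alternative chosen after seeing the data, 1 GFPKO array was assumed to vary like the other groups. No member was then called in limma, and 3 had an unadjusted p under 0.05. Relb was at 0.34, Nfkbid at 0.32, Nfkbie at 0.36 and Nfkbia at 0.49 in that fit, while Rel was at 0.85 (adjusted p = 0.0509).

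Single arrays also moved the count for Treg minus GFPKO. It was 2 without GFPKO replicate 1, 1 without GFPKO replicate 2 and 2 without Treg replicate 4. Relb was not called without GFPKO replicate 1 (log2 fold change 0.56, adjusted p = 0.0804) or GFPKO replicate 2 (adjusted p = 0.0516). Nfkbid was not called without GFPKO replicate 1 (0.47, adjusted p = 0.128), GFPKO replicate 2 (adjusted p = 0.0552), Treg replicate 4 (adjusted p = 0.0667) or Treg replicate 5 (adjusted p = 0.0643). Nfkbia was not called without GFPKO replicate 2 (adjusted p = 0.108), GFPKO replicate 3 (adjusted p = 0.0616), or Treg replicate 2, 3 or 4 (adjusted p = 0.0761, 0.0883 and 0.0701). Nfkbie kept its call whichever single array was left out. Tnfaip3 became called without Treg replicate 5 (adjusted p = 0.0412).

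**Figure D3:**
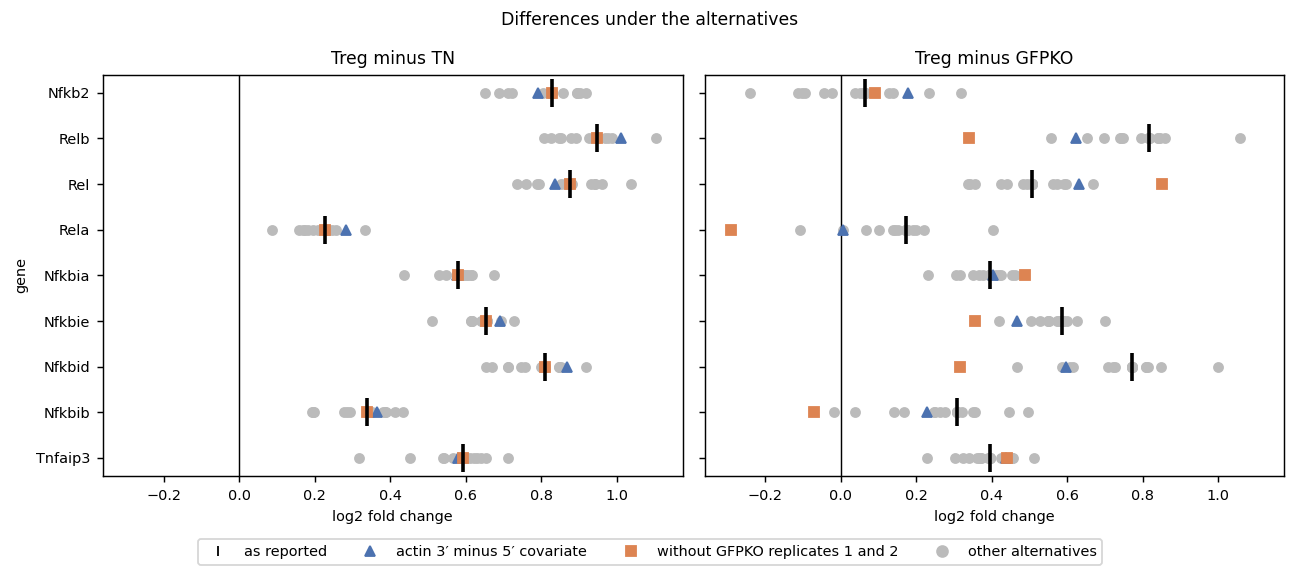
Log2 fold change of each member in Treg minus TN and Treg minus GFPKO as reported (black bar) and under the alternatives (grey points), with the actin covariate (blue triangle) and without GFPKO replicates 1 and 2 (orange square) picked out. All values for Treg minus TN stay above 0, while in Treg minus GFPKO the orange squares of Rela (-0.29) and Nfkbib (-0.070) lie below 0.

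Several members had more than 1 probe set, which are not independent replicates. In a fit of all 34945 single-symbol probe sets, 13 of the 17 member probe sets were called higher in Treg than in TN, with 4.86% of all probe sets called higher. Nfkbia had 5 probe sets, all called, with log2 fold changes from 0.58 for the brightest to 0.77. Both probe sets of Nfkbie (0.65 and 0.66) and both of Nfkb2 (0.83 and 0.96) were called. The other Tnfaip3 probe set read 4.22 in Treg and 4.18 in TN, near background, and was not called (0.038). The other Nfkbib probe set had every group mean below background (at most 3.70). In GFPKO minus TN, 1 of the 17 was called in this fit, with 2.09% of all probe sets called higher. It was a dimmer Nfkbia probe set (1448306_at), which read 10.56, 10.71 and 10.63 in TN, 10.94, 11.21 and 11.27 in GFPKO and 11.30 to 11.40 in Treg. By this probe set, as by 2 others of Nfkbia, GFPKO lay nearer to Treg than to TN, with a log2 fold change over TN of 0.51 ± 0.13 SE (adjusted p = 0.0356), against 0.18 for the brightest.

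The 2 Nfkb2 probe sets differed in where they placed GFPKO. The brightest (1429128_x_at) put GFPKO 0.77 above TN (adjusted p = 0.0563 in the fit over probe sets) and level with Treg. The other (1425902_a_at) read 6.49, 6.98 and 6.76 in TN, 7.54, 7.64, 7.39, 7.79 and 8.15 in Treg and 6.53, 7.28 and 7.58 in GFPKO. Its GFPKO values reached from the TN range into the Treg range, with GFPKO replicate 1 among the TN arrays. It gave a log2 fold change of 0.38 for GFPKO minus TN (adjusted p = 0.54) and 0.58 for Treg minus GFPKO (adjusted p = 0.133). The position of GFPKO for Nfkb2 thus depended on the probe set, while the difference between Treg and TN did not. In Treg minus GFPKO 5 of the 17 probe sets were called, the brightest of Relb, Nfkbid, Nfkbie and Nfkbia and 1 other of Nfkbia (0.46), with 4.90% of all probe sets called higher. The other Nfkbie probe set was not called in this limma fit (0.47, adjusted p = 0.0675).

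**Figure D4:**
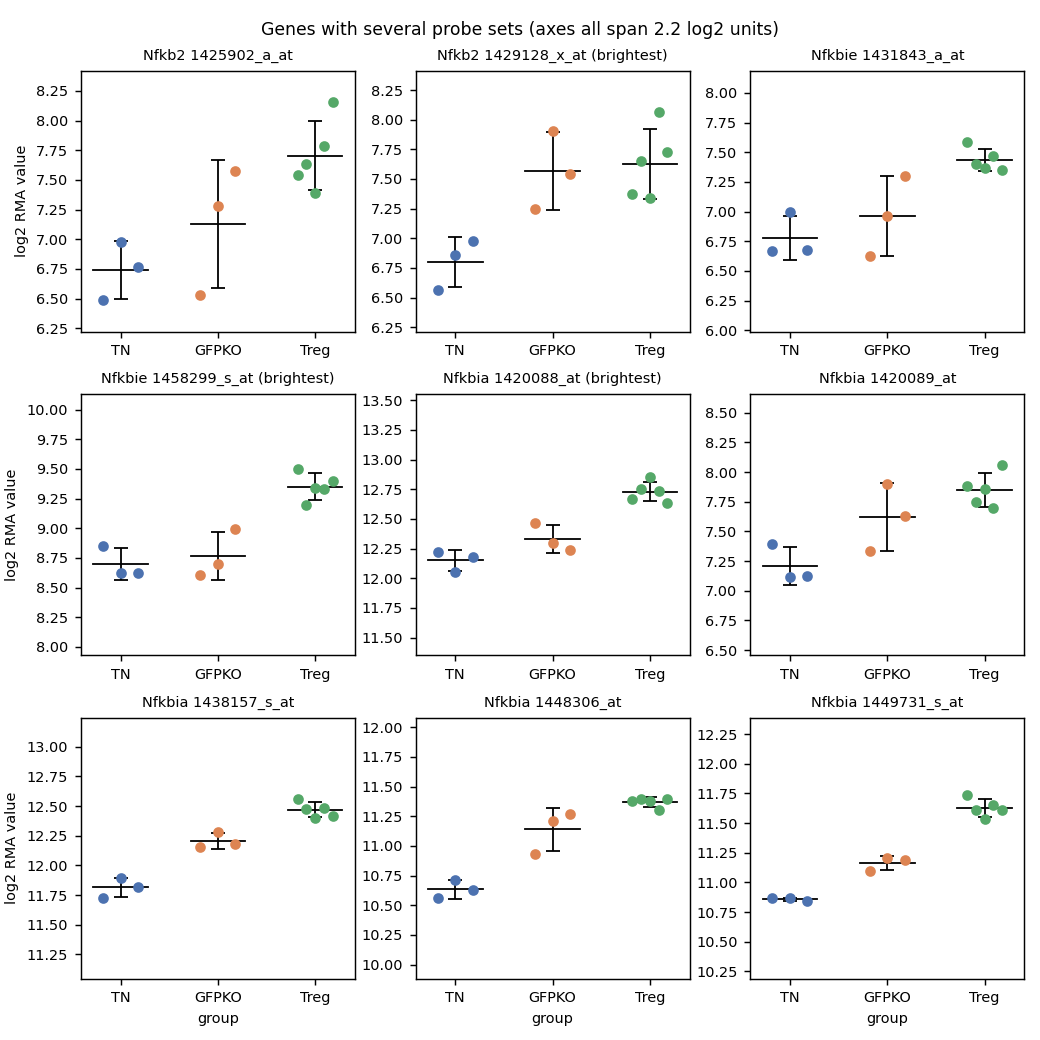
Log2 RMA value of each probe set of Nfkb2, Nfkbie and Nfkbia on each array, by group; points are arrays, lines are group means and bars are 1 SD. All 9 probe sets have every Treg array above every TN array, but they place the GFPKO arrays differently.

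The rest of the pathway was described through 4 lists from general knowledge. Receptors that signal towards NF-kB included some with large differences. Of 12 measured receptors 5 were higher and 1 lower in Treg than in TN, with 6.54% of all genes called higher and 3.42% lower. Tnfrsf4 (OX40) was at 4.17 ± 0.14 SE, Tnfrsf9 (4-1BB) at 2.88, Tnfrsf1b (the second TNF receptor) at 2.56 and Tnfrsf18 (GITR) at 2.15 on the scale of log2 fold changes. Cd28, the main co-stimulatory receptor, was lower (-0.63, adjusted p = 0.0237). The same 4 TNF family receptors were called higher in GFPKO than in TN, at 3.06, 1.72, 1.53 and 1.20, with no receptor lower. They were also called higher in Treg than in GFPKO, at 1.11, 1.16, 1.03 and 0.95. Cd28 (-0.73) and Il18r1 (-1.47), a chain of the interleukin 18 receptor, were lower in Treg than in GFPKO. The median over the receptors was 0.34 in Treg minus TN, 0.35 in GFPKO minus TN and 0.22 in Treg minus GFPKO.

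Among the kinases and adapters that activate NF-kB the share called higher in Treg than in TN was near that of all genes (6.54%). Of 19 measured genes Traf1, an adapter of TNF receptors, was called higher (0.82 ± 0.13, adjusted p = 0.00035), and 3 were lower, with 3.42% of all genes called lower. These were Malt1 (-0.92), the protease of the complex that links the T cell receptor to NF-kB, Ikbke (-0.44) and Ikbkb (-0.35), which encode IkB kinases. Traf1 was higher (0.74) and Ikbkb (-0.42) and Traf5 (-0.55) lower in GFPKO than in TN. In GFPKO, 2.64% of all genes were called higher and 3.02% lower than in TN. Malt1 (-1.03), Ikbke (-0.48) and Map3k7 (-0.47), which encodes the kinase TAK1, were lower and Traf5 (0.45) higher in Treg than in GFPKO, where 6.88% of all genes were called higher and 2.55% lower. The median over this list was -0.099 in Treg minus TN, -0.012 in GFPKO minus TN and 0.073 in Treg minus GFPKO.

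Other IkB proteins and negative regulators included a gene that went the other way from the members in Treg minus GFPKO. Nfkbiz, which encodes the nuclear protein IkB zeta, read 7.73 in TN, 8.13 in Treg and 9.05 in GFPKO as group means. It was called higher in GFPKO than in TN (1.33 ± 0.17 SE, adjusted p = 0.000142) and lower in Treg than in GFPKO (-0.93 ± 0.15, adjusted p = 0.0013), whereas the measured IkB members had their highest mean in Treg. Of the 13 genes measured Bcl3 (0.97), another nuclear IkB protein, Tnip1 (0.81), a partner of A20, and N4bp1 (0.54) were called higher in Treg than in TN, and none lower. Nfkbiz, Birc3 (0.68), a ubiquitin ligase, and N4bp1 (0.66) passed the test as higher in GFPKO than in TN, with no gene of the list lower. Of all genes 6.54% were called higher in the former comparison and 2.64% in the latter. Nfkbiz was the only one of the 13 called in Treg minus GFPKO. The medians in the 3 comparisons were 0.37, 0.22 and 0.060.

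Among 18 measured genes known as NF-kB targets in lymphocytes, 9 were higher and 2 lower in Treg than in TN, 6 and 1 in GFPKO than in TN, and 7 and 3 in Treg than in GFPKO. Over all genes the shares called higher and lower were 6.54% and 3.42%, 2.64% and 3.02%, and 6.88% and 2.55% in the same order. Il2ra, which encodes a chain of the receptor for interleukin 2, was at 5.62 and 4.85 above TN in Treg and GFPKO. TN was below background for it, so the sizes of both depend on the background level. Cd83, an activation marker, was higher in Treg than in TN (4.10 ± 0.19 SE) and in GFPKO than in TN (1.50), and higher in Treg than in GFPKO (2.60). Irf4 was at 2.17 in Treg and 2.28 in GFPKO over TN, and did not differ between them by the test (-0.10, adjusted p = 0.716). The chemokine gene Ccl20 was at 4.07 in GFPKO and 0.69 in Treg over TN, where TN was below background, and at -3.38 in Treg minus GFPKO. Il2, which encodes interleukin 2, was lower in Treg (-1.43) and in GFPKO (-0.76) than in TN. Treg and GFPKO were below background for it, so these sizes also depend on the background level, and its call in Treg minus GFPKO lay within background and is given no size. Ccr7, a receptor for homing to lymph nodes, was lower in Treg than in TN (-0.95) and than in GFPKO (-0.74). The medians were 0.63, -0.069 and 0.46.

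**Figure D5:**
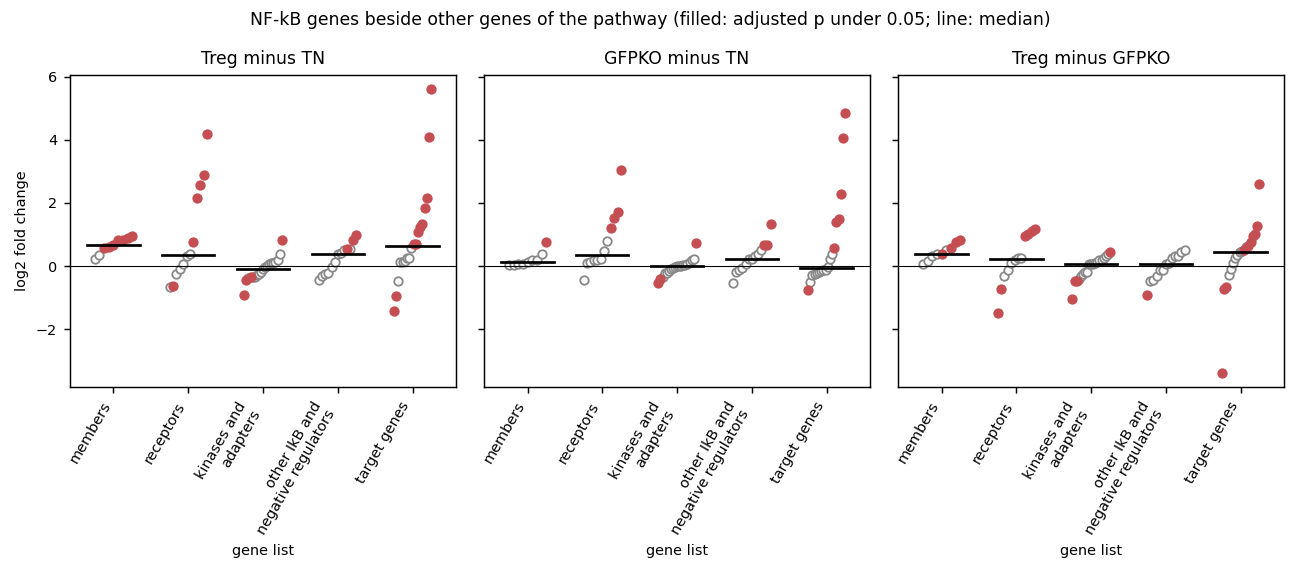
Log2 fold change of the 9 members and of the measured genes of 4 pathway lists in the 3 comparisons; each point is a gene, filled where the adjusted p is under 0.05, and lines are medians. The receptors and targets hold values above 4 in Treg minus TN, while the members lie between 0.23 and 0.95 and the kinases and adapters are centred at -0.099.

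For the 3 members with the widest range of group means, the genes with the closest profiles were listed as a description. Likeness was the root mean square difference between the 2 genes over the 11 arrays on the log2 scale, after each gene's mean was taken off. For Relb, whose own root mean square distance from its mean was 0.52, the closest were Eef2k (0.10), Apobec3 (0.11) and Nenf (0.12). For Rel, at 0.43, they were Acot9 (0.14), Smpdl3a (0.15) and Bcl2l2 (0.15). For Nfkb2, at 0.44, they were Plagl2 (0.15), Hic1 (0.18) and Grb7 (0.19). None of these 9 genes stands in the pathway lists.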

How the data were processed

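The authors deposited log2 values made with RMA (background correction, quantile normalisation and summary per probe set), per the submitters' processing notes, which give no version. The scale is not named there; a log2 scale was inferred from the range of 1.54 to 14.65. Of 45101 probe sets, 64 controls, 9160 not in the gene table and 932 with several symbols were left out. The other 34945 gave 18193 genes, each taken from its brightest probe set, with no filter on dim genes. No pair of arrays was identical.

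A model with 1 mean per group over all 11 arrays was fitted in limma 3.58.1 (R 4.3.3), with two-sided moderated tests and Benjamini-Hochberg adjustment over all genes within each of the 3 contrasts. The fit was tested on simulated data. Promoter windows came from RefSeq (GRCm38.p6). All 9 measured members are named. From each pathway list up to 4 called genes with the largest differences are named, with those called in the opposite direction, and further called genes of the shorter lists were chosen after their values were seen. The members and lists were chosen with earlier results of these data known. Alternatives were the samples in the fit, a replicate block, a dim filter, scaling, probe set choice, moderation, array weights, an actin covariate and leaving out each array. Per the titles TN, Treg and GFPKO share replicate numbers, which were not taken to pair arrays.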

Additional observations from a re-analysis of the deposited data

How the results depend on the processing

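No member reversed where it was called, and Rel, Relb, Nfkbia and Nfkbie kept their calls in Treg minus TN under all 22 alternatives. For Treg minus TN the count of 7 ranged from 5 to 7 when 1 array was left out. For GFPKO minus TN the count of 1 ranged from 0 to 1 when 1 array was left out. It was 0 in limma for only the 2 groups compared, for the fit over all probe sets and for the actin covariate. In each of these, 1 member had an unadjusted p under 0.05. With array weights it was 3. Of all 18193 genes, 1029 were called in either direction as reported. Under these alternatives, in the same order, 562, 908, 570 and 5051 of all genes were called. For Treg minus GFPKO the count of 4 ranged from 1 to 4 when 1 array was left out. It was 6 with array weights, 2 with arrays centred on their median, 0 with the actin covariate (6 unadjusted) and 0 without GFPKO replicates 1 and 2 together (3 unadjusted). The cause was not tested. With the replicate block the counts were 6, 1 and 2. The block ended the calls of Nfkbid in Treg minus TN (adjusted p = 0.0914) and of Relb (0.0679), Nfkbia (0.117) and Nfkbid (0.126) in Treg minus GFPKO, where Rel became called (0.0183). The numbers were not taken to pair arrays. Same-numbered arrays correlated above 0.1 in their deviations from the group means in 3 of 9 pairs, with a range from -0.22 to 0.51. All 3 were pairs of replicate 1, at 0.21 for TN and Treg, 0.16 for TN and GFPKO and 0.51 for Treg and GFPKO. Whether the arrays of replicate 1 share a source of variation was not tested. Centring on medians shifted the median of all genes by -0.14 in Treg minus TN and -0.17 in Treg minus GFPKO.

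Signs changed only in uncalled estimates. When 1 array was left out, GFPKO minus TN ranged from -0.18 to 0.34 for Rela, from -0.11 to 0.39 for Relb, from -0.16 to 0.36 for Nfkbib, from -0.19 to 0.34 for Nfkbid and from -0.046 to 0.15 for Nfkbie. Treg minus GFPKO ranged from -0.094 to 0.23 for Nfkb2, from -0.11 to 0.40 for Rela and from -0.019 to 0.50 for Nfkbib. In that comparison Nfkb2 was also at -0.11 with the replicate block, -0.024 with quantile normalisation repeated, -0.10 with arrays centred on their median and -0.24 with array weights, and Rela and Nfkbib were at -0.29 and -0.070 without GFPKO replicates 1 and 2 together. With the mean of all probe sets Tnfaip3 lost its call in Treg minus TN (0.32, adjusted p = 0.0842), and in GFPKO minus TN Nfkb2 lost its call (adjusted p = 0.146) while Nfkbia gained one (0.36, adjusted p = 0.0438). The number of arrays limits the precision.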
